A study of Mus musculus with 6 samples.

Results

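The interferon-inducible GTPases are proteins that cells make in large amounts after interferon and that bind and hydrolyse GTP. The 9 genes described here were taken by name from 26082 names in the expression table: the guanylate-binding proteins Gbp2, Gbp3, Gbp6 and Gbp7 (4 genes), and the immunity-related GTPases Irgm1, Irgm2, Igtp, Iigp1 and Ifi47 (5 genes). Of these, 8 had an entry of their own. Ifi47 was listed only together with the olfactory receptor gene Olfr56, so its values are those of the joined entry.

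The RNA-Seq samples were MLL-AF9 leukemia cells from the bone marrow of 6 C57BL/6J mice. Vehicle was given to 3 of them and DS-5272, 80 mg/kg by mouth, to the other 3, and the cells were taken after 24 h in both groups. DS-5272 is a small molecule that blocks the binding of MDM2 to p53 and so activates p53. The leukemia arises from c-Kit+ marrow progenitors given the MLL-AF9 fusion oncogene with a retrovirus, and was passed from mouse to mouse several times, so the mice share a selected leukemia while their own immune cells are intact. The samples are numbered 1 to 3 in each group. Values are FPKM (fragments scaled to transcript length and library size), a scale on which the levels of different genes can be compared.

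Interferons bind receptors on the cell surface, whose JAK kinases switch on transcription factors that move to the nucleus. GAS elements are bound after interferon gamma, and ISRE elements by complexes with IRF9 and by other factors of the IRF family. Guanylate-binding proteins (GBPs) gather on the vacuoles and surfaces of intracellular microbes and help to open them and to start inflammasome signaling. Immunity-related GTPases (IRGs) disrupt the vacuole membrane: Iigp1 and Ifi47 belong to the effector branch, and Irgm1, Irgm2 and Igtp (also called Irgm3) to the regulatory branch that sits on the cell's own membranes and holds the effectors inactive there. In myeloid cells, both families are widely used as readouts of interferon signaling.

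In the GENCODE annotation of GRCm38, Gbp2 (ENSMUSG00000028270.12) lies at chr3:142620602-142638008, Gbp3 (ENSMUSG00000028268.14) at chr3:142560026-142573209 and Gbp7 (ENSMUSG00000040253.15) at chr3:142530342-142550149, all on the + strand of chromosome 3. Gbp6 (ENSMUSG00000104713.4) lies apart from them on chromosome 5, at chr5:105270702-105293698 on the − strand. Of the IRGs, 4 lie on chromosome 11: Irgm1 (ENSMUSG00000046879.7) at chr11:48861968-48871683 on the − strand, Ifi47 (ENSMUSG00000078920.3) at chr11:49076587-49096974, Igtp (ENSMUSG00000078853.8) at chr11:58199556-58207591 and Irgm2 (ENSMUSG00000069874.7) at chr11:58199618-58222782, the last 3 on the + strand. Exons of Igtp and Irgm2 overlap on the same strand, and 5.67% of the 100-base windows of the longest coding Igtp transcript also occur in Irgm2 transcripts. Gbp6 shares 44.2% of its windows with Gbp10 and 82.9% with the overlapping gene Gm43302. How the counting divided such fragments is not stated, so the values of Gbp6, and to a lesser degree of Igtp, Irgm2 and Gbp7 (9.76% shared with Gm43802), are uncertain in this respect.

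RefSeq promoters (GRCm38.p6, 250 bases before to 50 after the start) were found for 7 of the 9 members, and Gbp6 and Iigp1 had no entry. They were searched on both strands for the ISRE core (GAAA, any 2 bases, GAAA, or in reverse TTTC, any 2 bases, TTTC) and for the GAS element, TTCNNNGAA. The ISRE core occurred in 6 of the 7 promoters, against 3.44% of all 32851 promoters of this length, and the GAS element in 3 of the 7, against 8.3% of all promoters. The 6 promoters with an ISRE core are printed over the 120 bases before the start, 5′ to 3′ along the gene, with ISRE and GAS matches in capitals, since these are the elements that interferon-activated factors recognise. They come from chr3:142620543-142620662 (Gbp2), chr3:142559924-142560043 (Gbp3), chr3:142530216-142530335 (Gbp7), chr11:48871421-48871540 on the − strand (Irgm1), chr11:58214857-58214976 (Irgm2) and chr11:58199436-58199555 (Igtp). The starts are those of RefSeq and can differ from the GENCODE gene bounds given above. The Irgm1 and Irgm2 stretches lie inside those bounds, and the Gbp2 and Gbp3 stretches lie partly inside.
Gbp2: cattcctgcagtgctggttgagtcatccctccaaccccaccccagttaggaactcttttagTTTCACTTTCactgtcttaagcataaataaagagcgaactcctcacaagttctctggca
Gbp3: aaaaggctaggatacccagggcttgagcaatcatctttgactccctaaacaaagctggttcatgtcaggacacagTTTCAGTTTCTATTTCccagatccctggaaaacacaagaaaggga
Gbp7: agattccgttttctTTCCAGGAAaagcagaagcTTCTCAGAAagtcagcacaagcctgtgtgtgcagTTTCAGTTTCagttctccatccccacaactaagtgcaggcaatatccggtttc
Irgm1: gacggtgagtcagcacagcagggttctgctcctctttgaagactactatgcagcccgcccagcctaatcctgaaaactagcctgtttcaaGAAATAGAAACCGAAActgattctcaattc
Irgm2: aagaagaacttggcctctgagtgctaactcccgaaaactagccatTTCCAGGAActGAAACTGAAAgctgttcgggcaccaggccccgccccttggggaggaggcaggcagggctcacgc
Igtp: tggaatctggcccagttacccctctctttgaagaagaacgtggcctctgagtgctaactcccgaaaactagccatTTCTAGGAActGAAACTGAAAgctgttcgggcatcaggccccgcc

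In the GBP promoters the ISRE core reads in reverse (TTTC first), and in the IRG promoters it reads forward (GAAA first). Gbp3 and Irgm1 each held 2 overlapping ISRE cores, and Gbp7 held 2 GAS matches upstream of its ISRE core. The GAS and ISRE matches of Igtp and Irgm2 stand side by side in the same spacing, and with the ISRE cores aligned, 87 of 90 bases (96.7%) were identical between these promoters. Gbp3 has another start in RefSeq, whose window held no match, and the window of Ifi47 held none either. A match describes these letters only, and binding was not measured.

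DS-5272 was accompanied by higher levels of 4 of the 9 members: Gbp2 rose most (6.04-fold between the group means), and Irgm1, Irgm2 and Igtp rose 2.48-, 2.66- and 2.33-fold. No member was called lower. The call was an adjusted p under 0.05 in limma on log2(FPKM + 1), fitted on the 11130 genes whose mean over the 6 samples reached 1 FPKM. By this rule 24.2% of all tested genes were higher and 22.0% lower, so 1 of 4 GBPs and 3 of 5 IRGs have to be read against a transcriptome in which close to every other gene moved. Gbp6 and Iigp1 had means under 1 FPKM and were not tested in this fit, which leaves 7 members tested. With the replicate number as a block in the fit, 5 members were called higher, Ifi47 being added, against 30.3% of all genes. The count fell to 2 (Gbp2 and Igtp) with no filter (14.6% of genes called higher), with upper quartile scaling (20.8%), with scaling to a common total (15.3%), and without vehicle replicate 2 (14.8%), vehicle replicate 3 (16.2%), DS-5272 replicate 1 (26.3%) or DS-5272 replicate 3 (19.9%). The median log2 fold change was 0.45 over the 4 GBPs, 1.11 over the 5 IRGs and 0.04 over all tested genes. With a pseudocount of 0.1 the family medians were 0.99 and 1.2, and without DS-5272 replicate 1 they were 0.14 and 0.93. In bulk RNA, more RNA per cell and more cells of a type that contains the RNA cannot be told apart, and the p-values measure the spread between these mice only.

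**Figure D1:**
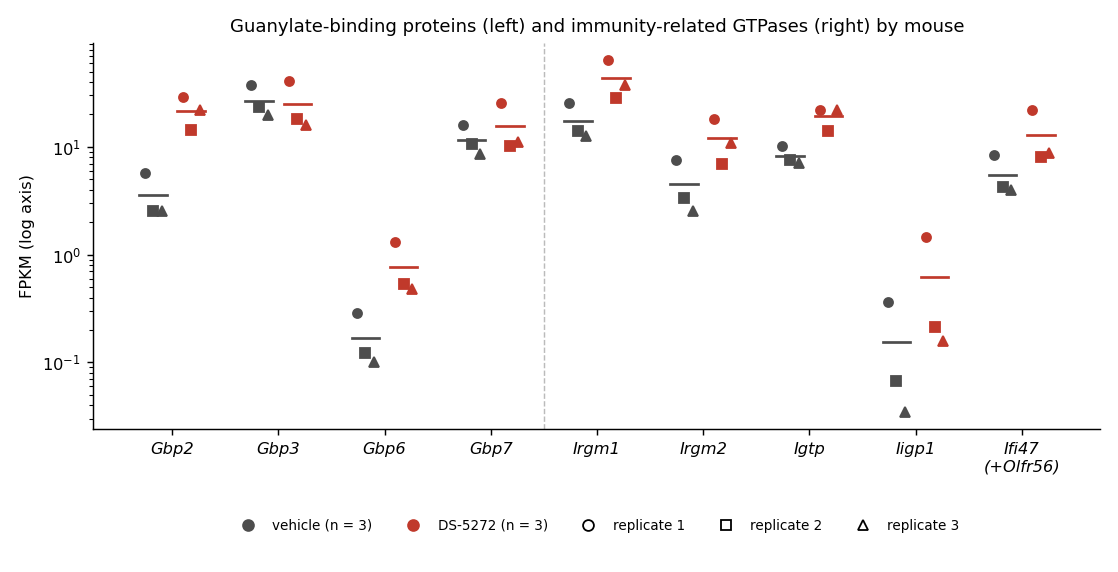
FPKM (log axis) of the 9 genes in each mouse, with vehicle in gray, DS-5272 in red, a marker shape for each replicate number and a bar at the group mean (n = 3). Gbp2, Gbp6, Irgm1 and Igtp had every DS-5272 value above every vehicle value, Gbp3 had overlapping groups with means of 26.9 and 25.1 FPKM, and replicate 1 was the highest of its group for all 9 genes.

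Among the GBPs, Gbp2, a prenylated member that coats the vacuoles of parasites and bacteria, was expressed at 5.67, 2.56 and 2.56 FPKM in vehicle samples 1, 2 and 3 and at 28.9, 14.2 and 22.0 FPKM in the DS-5272 samples of the same numbers. The lowest DS-5272 value was above the highest vehicle value. The group means were 3.6 ± 1.79 and 21.7 ± 7.38 FPKM (SD, n = 3), and the log2 fold change was 2.32 (SE 0.33), with a limma adjusted p of 0.0038. Within same-numbered pairs the ratio of DS-5272 to vehicle was 5.11, 5.54 and 8.58. The rise of Gbp2 was past the threshold under every alternative tried, with adjusted p between 0.00048 and 0.021.

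Gbp3 was the most abundant GBP in vehicle samples, at 37.3, 23.7 and 19.6 FPKM, and stood at 41.1, 18.2 and 15.8 FPKM after DS-5272. The groups overlapped almost fully. The means were 26.9 ± 9.28 and 25.1 ± 13.9 FPKM (SD, n = 3), and the log2 fold change was −0.17 (SE 0.39), with a limma adjusted p of 0.73. The pairs went in both directions, with ratios of 1.1, 0.771 and 0.809, and the sign of the fold change turned to 0.08 without vehicle replicate 1 and likewise without DS-5272 replicate 3.

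Gbp7, its neighbor on chromosome 3, which has been linked to the delivery of oxidative defense to vacuoles, was measured at 15.8, 10.7 and 8.54 FPKM with vehicle and at 25.7, 10.1 and 11.2 FPKM with DS-5272. The higher mean after DS-5272 (15.7 ± 8.69 against 11.7 ± 3.75 FPKM, SD, n = 3) came with overlapping groups, since only replicate 1 exceeded all vehicle values. The log2 fold change was 0.32 (SE 0.37), the limma adjusted p was 0.5, and without DS-5272 replicate 1 the value was −0.08.

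Gbp6, of the chromosome 5 cluster, was low in all samples, with 0.286, 0.122 and 0.1 FPKM in vehicle and 1.31, 0.534 and 0.481 FPKM in DS-5272 samples. The groups did not overlap, and the ratios within pairs were 4.58, 4.36 and 4.81, close to one another although the levels of replicate 1 were 2.57 and 2.58 times the mean of the other two in vehicle and DS-5272. At the depth estimated from low FPKM values these levels stand for about 10 to 32 fragments in vehicle and 29 to 110 in DS-5272 samples. Without the filter on low values the log2 fold change was 0.58 (SE 0.18) and the limma adjusted p was 0.065, in a fit that called 14.6% of 18149 genes higher. With a pseudocount of 0.1, in place of 1, these became 1.64 (SE 0.44) and 0.034, against 15.7% of genes called higher.

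Of the regulatory IRGs, Irgm1, whose loss in mice impairs autophagy and the survival of blood stem cells, was measured at 25.8, 14.0 and 12.5 FPKM in vehicle and at 63.7, 28.5 and 37.8 FPKM in DS-5272 samples. The groups stood apart by a narrow margin, 28.5 against 25.8 FPKM. The means were 17.4 ± 7.31 and 43.3 ± 18.2 FPKM (SD, n = 3), and the log2 fold change was 1.26 (SE 0.36), with a limma adjusted p of 0.028. Each pair moved the same way, by 2.46, 2.03 and 3.03 times, and with the replicate block the adjusted p was 0.0017. The call was lost without vehicle replicate 2, vehicle replicate 3, DS-5272 replicate 1 or DS-5272 replicate 3, with adjusted p of 0.09, 0.085, 0.054 and 0.058.

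Irgm2, which is found at the Golgi and on vacuoles, had 7.61, 3.37 and 2.56 FPKM in vehicle and 18.2, 7.0 and 10.9 FPKM in DS-5272 samples. Here the groups overlapped, since DS-5272 replicate 2 was under vehicle replicate 1, while the pair ratios were 2.39, 2.08 and 4.26. The means were 4.51 ± 2.71 and 12.0 ± 5.67 FPKM (SD, n = 3), and the log2 fold change was 1.26 (SE 0.42), with a limma adjusted p of 0.046. With the block the adjusted p was 0.0036. Leaving out the same 4 samples as for Irgm1 gave adjusted p of 0.13, 0.13, 0.1 and 0.097.

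Igtp, the regulatory IRG of the endoplasmic reticulum, was measured at 10.2, 7.49 and 7.13 FPKM in vehicle and at 22.1, 13.9 and 21.9 FPKM in DS-5272 samples. The groups did not overlap, and replicate 1 stood out less than for any other member, at 1.4 and 1.23 times the mean of the other two in vehicle and DS-5272. The means were 8.29 ± 1.7 and 19.3 ± 4.68 FPKM (SD, n = 3), and the log2 fold change was 1.11 (SE 0.21), with a limma adjusted p of 0.0079. Besides Gbp2, Igtp was the only member past the threshold under every alternative tried, with adjusted p from 0.0032 to 0.036.

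Of the effector IRGs, Ifi47, in its joined entry, had 8.33, 4.21 and 3.96 FPKM in vehicle and 22.0, 8.02 and 8.72 FPKM in DS-5272 samples. DS-5272 replicate 2 was slightly under vehicle replicate 1, and all 3 pairs were higher with DS-5272, by 2.64, 1.9 and 2.2 times. The means were 5.5 ± 2.45 and 12.9 ± 7.88 FPKM (SD, n = 3), and the log2 fold change was 1.02 (SE 0.41), with a limma adjusted p of 0.081 without the block and 0.0029 with it.

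Iigp1, an effector that assembles on parasite vacuoles, had the lowest mean of the members in both groups, at 0.364, 0.0672 and 0.035 FPKM in vehicle and 1.47, 0.214 and 0.158 FPKM in DS-5272 samples. Replicate 1 was 7.13 times the mean of the other two in vehicle and 7.9 times in DS-5272, the widest such gap among the members. The ratios within pairs were 4.04, 3.18 and 4.51. The values rest on few fragments, an estimated 4.2 to 49 in vehicle and 12 to 150 in DS-5272 samples. Without the filter, the log2 fold change was 0.4 (SE 0.31), with a limma adjusted p of 0.39, and with a block it was 0.14.

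With the block and no filter, 6 of the 9 members were called higher, Gbp6 being added (limma adjusted p = 0.024), against 17.6% of all genes. With the block, no filter and a pseudocount of 0.1, 7 were called, all except Gbp3 and Gbp7, against 19.5%. In the other direction, scaling all samples to the same total lowered the median of all tested genes to −0.2, and left Gbp2 and Igtp called. With the block as well, 5 members were called under this scaling (Irgm1, Irgm2 and Ifi47 at limma adjusted p of 0.0036, 0.0056 and 0.0086), against 20% of all genes. In exact two-sided permutation tests of single genes, 3 mice against 3 cannot go below p = 0.1. This smallest value was reached by Gbp2, Gbp6, Irgm1 and Igtp, while p was 0.2 for Irgm2 and Ifi47, 0.5 for Iigp1, 0.6 for Gbp7 and 0.7 for Gbp3.

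**Figure D2:**
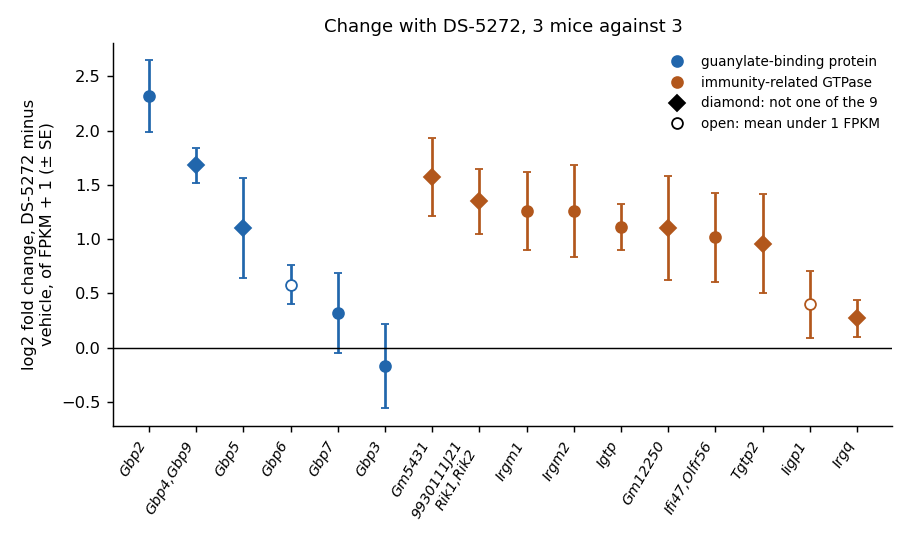
Log2 fold change of FPKM + 1, DS-5272 minus vehicle, with SE from limma (3 mice against 3), for GBPs in blue and IRGs in orange, where diamonds are family genes other than the 9 and open circles had a mean under 1 FPKM and their SE from the fit without a filter. The GBPs spread from 2.32 (Gbp2) to −0.17 (Gbp3), while the 9 plotted IRG entries with a mean of at least 1 FPKM lie between 0.96 and 1.57 except Irgq (0.27). IRG and GBP genes outside the 9 members with a lower mean are not plotted.

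The 4 IRG members tested had log2 fold changes between 1.02 and 1.26, and the 3 GBP members tested between −0.17 and 2.32. The members under 1 FPKM, Iigp1 and Gbp6, had 0.4 and 0.58 on the same scale, and a difference in spread between the families was not tested. Summed over its 5 members, the IRG level was 52.4, 29.2 and 26.1 FPKM in vehicle and 127, 57.6 and 79.5 FPKM in DS-5272 samples. Irgm1 made up 47.7% to 49.3% of this sum in vehicle and 47.5% to 50% in DS-5272 samples, so its share was nearly the same in the 6 mice while the sums of the groups did not overlap. The GBP sum was 59.1, 37.0 and 30.8 FPKM in vehicle and 97.0, 43.0 and 49.5 FPKM in DS-5272 samples, with overlap.

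Within the GBP sum, the share of Gbp3 was 63.1%, 63.9% and 63.6% in vehicle and 42.4%, 42.4% and 32.0% in DS-5272 samples. The share of Gbp2 went the other way, from 9.59%, 6.91% and 8.32% to 29.8%, 33% and 44.4%. In both shares the groups stood apart. The ratio of Gbp2 to Gbp3 was 0.152, 0.108 and 0.131 in vehicle and 0.704, 0.778 and 1.39 in DS-5272 samples, a difference of 2.82 in mean log2 ratio, with p = 0.1 in the exact permutation test, the smallest it can give. This ratio is taken within each sample and does not depend on scaling between samples. The IRG sum was 0.787 to 0.886 times the GBP sum in vehicle and 1.31 to 1.6 times in DS-5272 samples, so the groups did not overlap here either.

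**Figure D3:**
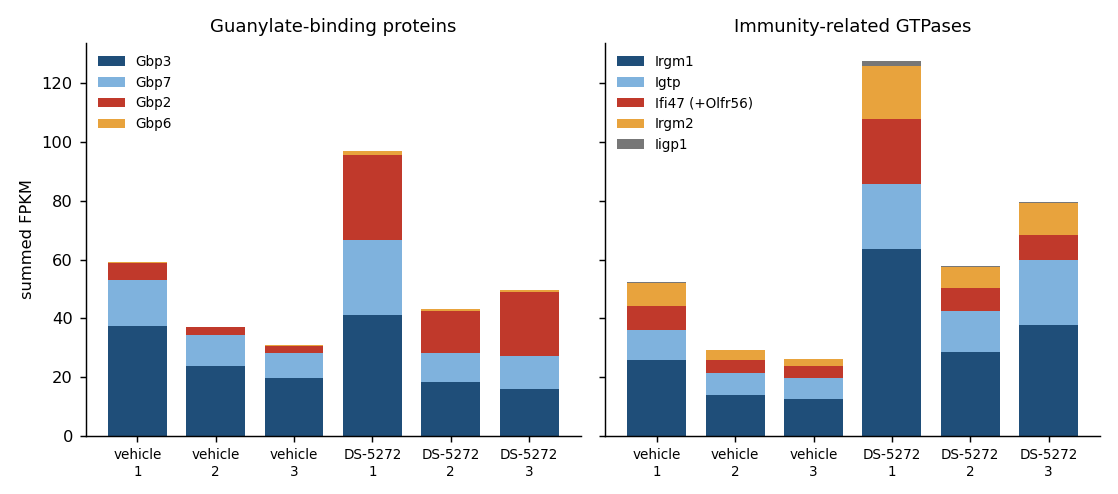
Summed FPKM of the GBP members (left) and the IRG members (right) in each mouse, stacked by gene. Gbp3 filled 63.1% to 63.9% of the GBP bars in every vehicle mouse and 32.0% to 42.4% with DS-5272, while Irgm1 filled 47.5% to 50% of the IRG bars throughout.

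In vehicle samples the mean levels ran from Gbp3 (26.9 FPKM) through Irgm1 (17.4), Gbp7 (11.7), Igtp (8.29), Ifi47 (5.5), Irgm2 (4.51) and Gbp2 (3.6) to Gbp6 (0.169) and Iigp1 (0.156). With DS-5272 the order was Irgm1 (43.3 FPKM), Gbp3 (25.1), Gbp2 (21.7), Igtp (19.3), Gbp7 (15.7), Ifi47 (12.9), Irgm2 (12.0), Gbp6 (0.775) and Iigp1 (0.614). Gbp2 moved from the seventh place to the third. In either group, the ranges of neighbors in the order overlapped except at the step down to Gbp6.

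Replicate 1 was the highest sample of its group, in vehicle and in DS-5272, for 9 of the 9 members. Of the 18149 genes above 0 in any sample, at most 23.6% had this order. That share also counts ties, such as genes at 0 in every sample of a group, as replicate 1 highest. Irgm1 was 1.95 and 1.92 times the mean of the other two in vehicle and DS-5272, and Gbp7 was 1.65 and 2.41 times. Counted over pairs of the same number, 7 of the 9 members were higher with DS-5272 in all 3 pairs (33.4% of genes), and 4 of the 9 had groups without overlap (24.9% of genes). When both mice numbered 1 were left out, 5 members were called higher (Gbp2, Irgm1, Irgm2, Igtp and Ifi47), against 22.6% of all genes.

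The genes with the profile most like the mean of the 9 members were found by the root-mean-square distance of log2(FPKM + 1), relative to the vehicle mean, over the 6 samples. The mean profile of the members was 0.47, −0.17 and −0.3 in vehicle and 1.51, 0.47 and 0.71 in DS-5272 samples. Outside the GTPase families, the closest was Nlrc5, a transactivator of MHC class I genes, at a distance of 0.061, followed by Tor3a (0.085), Cbr3 and Gm16340 (each 0.092), Ptprcap (0.122), Kcnj2 (0.129), and Asb13 and Parp9 (each 0.131). Nlrc5 was measured at 3.32, 1.65 and 1.66 FPKM in vehicle and at 7.94, 3.38 and 4.51 FPKM in DS-5272 samples.

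Other genes of both families were counted in the same fit, in which 24.2% of all tested genes were called higher. Among 6 entries of other GBPs, 2 were tested and 1 was called higher, the joined entry of Gbp4 and Gbp9, with 0.998, 0.72 and 0.754 FPKM in vehicle and 4.42, 4.22 and 6.0 FPKM in DS-5272 samples (log2 fold change 1.68, SE 0.16, limma adjusted p = 0.0013). In contrast to the members, this entry was highest in DS-5272 replicate 3. Gbp5, which promotes inflammasome assembly, was at 2.15, 1.02 and 1.14 FPKM in vehicle and 9.91, 2.83 and 2.2 FPKM in DS-5272 samples, with a limma adjusted p of 0.092, and 0.013 with the block. Gbp8 reached 1.16 FPKM in DS-5272 replicate 1 and at most 0.216 elsewhere, and Gbp2b, Gbp10 and Gbp11 stayed at or under 0.0344 FPKM.

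Of 10 entries of other IRGs, 5 were tested and 2 were called higher, against 24.2% of all tested genes. The joined entry of 9930111J21Rik1 and 9930111J21Rik2 had 14.3, 7.77 and 5.96 FPKM in vehicle and 28.5, 18.9 and 25.3 FPKM in DS-5272 samples (log2 fold change 1.35, limma adjusted p = 0.013), and Gm5431 had 1.57, 0.431 and 0.429 FPKM in vehicle and 7.11, 2.69 and 3.58 FPKM in DS-5272 samples (1.57, limma adjusted p = 0.013). Gm12250 (known as Irgb10, an IRG that acts on bacterial membranes) and Tgtp2 had the values of the other IRGs in size, with log2 fold changes of 1.1 and 0.96, but limma adjusted p of 0.097 and 0.13, which became 0.0054 and 0.0051 with the block. Irgq, a quasi-GTPase, had a log2 fold change of 0.27 and an adjusted p of 0.24. The untested IRG genes Gm4841, Gm4951, F830016B08Rik, Tgtp1 and Irgc1 stayed at or under 0.559 FPKM.

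Among the other large GTPases of the interferon response, 3 of 6 entries were tested and all 3 were called higher, against 24.2% of all tested genes. Mx1 had 5.6, 4.06 and 2.38 FPKM in vehicle and 34.1, 15.9 and 33.7 FPKM in DS-5272 samples. Its log2 fold change was 2.5 (limma adjusted p = 0.0037), similar in size to Gbp2. Mx2 changed by 2.06 (adjusted p = 0.0029) and Gm8995, of the very large GTPases, by 0.84 (adjusted p = 0.0022). Gvin1, Gm4070 and Gm17757 had means under 1 FPKM.

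Of the pathway that induces the members, the 20 interferon genes were all under the filter, and 15 of them were listed at 0 in every sample. Interferon gamma, Ifng, stood at 0.041, 0.0254 and 0.0232 FPKM in vehicle and at 0.0824, 0.157 and 0.304 FPKM in DS-5272 samples, an estimated 1.1 to 2.1 and 3.2 to 8.6 fragments. Ifng was highest in DS-5272 replicate 3, whereas the members were highest in DS-5272 replicate 1, Igtp by a narrow margin. Ifnb1, the gene of interferon beta, was listed at 0 in the vehicle samples and at 0.187, 0.107 and 0.0648 FPKM in DS-5272 samples, an estimated 4.5, 2.3 and 1.1 fragments. Without the filter, the limma adjusted p was 0.081 for Ifng and 0.032 for Ifnb1. With a pseudocount of 0.1 and no filter it was 0.038 and 0.012. In that fit 2 of the 20 interferon genes were called higher, against 15.7% of the 18149 genes above 0 in a sample. The 15 interferon genes at 0 were not in the fit.

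Of 7 receptor chains and kinases, 6 were called higher and none lower in limma (7 with the block). Over all tested genes, 24.2% were called higher (30.3% with the block). Ifngr2, the signaling chain of the interferon gamma receptor, had 23.1, 19.6 and 16.8 FPKM in vehicle and 53.9, 36.5 and 42.9 FPKM in DS-5272 samples (log2 fold change 1.12, limma adjusted p = 0.0047). Ifngr1, its binding chain, changed by 0.34 (adjusted p = 0.088, and 0.042 with the block). The kinase genes Jak1, Jak2 and Tyk2 rose by 0.68, 0.72 and 0.84 on the log2 scale, and Ifnar2, of the type I receptor, by 0.77.

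All 9 tested of 10 transcription factors and transactivators were called higher, against 24.2% of all tested genes, with a list median of 1.18. Stat2, Irf9 and Batf2, a partner of IRF1 in macrophages, rose by 1.39, 1.08 and 1.4 on the log2 scale, and Irf7, which amplifies type I interferon, by 2.39. Irf1, which acts on ISRE elements after interferon gamma, rose by 1.29 (limma adjusted p = 0.01), from 24.4, 30.7 and 33.5 to 49.4, 75.6 and 104 FPKM, and was lowest in replicate 1 of both groups, where the members were highest. In contrast, Stat2, Irf7, Irf8 and Batf2 were highest in replicate 1 of both groups, as the members were.

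**Figure D4:**
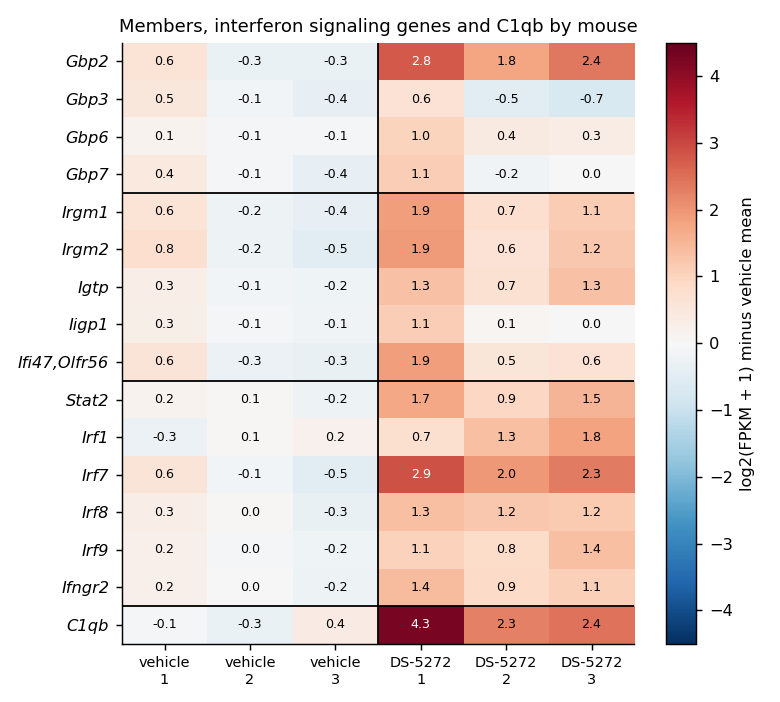
Log2(FPKM + 1) minus the vehicle mean of the same gene, for the 9 members, 6 genes of interferon signaling and C1qb, a macrophage gene, in each mouse (red above and blue below the vehicle mean). The members had their highest values in DS-5272 replicate 1 (mean profile 1.51), Igtp by a narrow margin over replicate 3. Of the signaling genes, Stat2, Irf7, Irf8 and Ifngr2 were also highest in DS-5272 replicate 1, while Irf1 and Irf9 were highest in replicate 3.

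Of 7 inhibitors of interferon signaling, 5 were called higher, against 24.2% of all tested genes, with a median of 1.08. Socs3 rose by 2.21 (limma adjusted p = 0.0024), Usp18, which blocks the type I receptor, by 2.12 (adjusted p = 0.0041), the phosphatase gene Ptpn6 by 1.11 (adjusted p = 0.004), and Socs1, the main brake on the interferon gamma receptor, by 0.4 (adjusted p = 0.046). Another list held genes of ATG8 proteins, such as Gabarap and Map1lc3a, and of the proteins that attach them to membranes. GBPs and IRGs use this attachment to find vacuoles. In this list 7 of 10 genes were called higher, led by Atg7 (1.12), Gabarap (0.89) and Gabarapl2 (0.81). With the block it was 8 of 10. Over all tested genes, 24.2% were called higher, and 30.3% with the block. Map1lc3a had 4.47, 13.1 and 15 FPKM in vehicle and 13.4, 20 and 32.3 FPKM in DS-5272 samples, with replicate 1 lowest in both groups. Its limma adjusted p was 0.12, and 0.0052 with the block.

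Of 6 enzymes that prenylate and trim proteins with a CaaX end, such as Gbp2, none was called higher and 2 were called lower. Over all tested genes, 24.2% were called higher and 22.0% lower. Which of the 6 enzymes acts on Gbp2 was not examined. Fntb, the beta subunit of farnesyltransferase, fell from 7.3, 6.5 and 6.63 to 4.19, 3.53 and 3.27 FPKM, a log2 fold change of −0.75 (limma adjusted p = 0.0049), and Zmpste24 by −0.29 (adjusted p = 0.043, and 0.054 with the block). Pggt1b (−0.21), Rce1, Icmt and the joined entry of Fnta were not called, with limma adjusted p of 0.12, 0.094, 0.35 and 0.73. Of 10 inflammasome genes, 5 were called higher (7 with the block), against 24.2% of all tested genes (30.3% with the block). The list was led by Il1b (4.27, limma adjusted p = 0.017) and Il18 (2.58, adjusted p = 0.00061). Gsdmd, the pore-forming gasdermin, and Pycard, the adaptor ASC, followed (each 0.81, adjusted p = 0.013 and 0.026). Il1b had 1.01, 9.63 and 13 FPKM in vehicle and 30.5, 194 and 347 FPKM in DS-5272 samples, so here too replicate 1 was the lowest where the GTPases were highest. Nlrp3, named after its values were seen, showed the same order, with 1.82, 25.4 and 27.9 FPKM and 19.0, 146 and 212 FPKM. Its limma adjusted p was 0.097, and 0.00029 with the block.

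Over all tested genes with a promoter entry, the share called higher was 35.0% (99 of 283) with an ISRE core match, 23.8% without one and 25.2% (159 of 630) with a GAS match. The members with an ISRE core were found on both sides of the threshold: Gbp2, Irgm1, Irgm2 and Igtp were called higher, and Gbp3 and Gbp7 were not, although Gbp3 held 2 ISRE cores and Gbp7 both elements.

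The leukemia markers were present in all samples, with Meis1 at 66.1 to 110 FPKM and the joined Hoxa9 entry at 204 to 290 FPKM. Kit was lower with DS-5272 (45.0, 32.3 and 30.5 against 12.1, 9.7 and 4.94 FPKM), and Itgam, a marker of myeloid maturation, was higher (140 to 190 against 530 to 1090 FPKM). Mpo, a gene of immature myeloid cells, was lower (218, 140 and 325 against 3.77, 12.2 and 3.25 FPKM, a log2 fold change of −5.07, limma adjusted p = 0.0014). Of the NK, T and B cell markers, only Nkg7 and Cd79b reached the filter, and neither was called in limma. The 8 NK cell markers summed to 1.5 to 2.79 FPKM in vehicle and 2.98 to 4.31 FPKM in DS-5272 samples, with Ncr1 at or under 0.354 and Klrb1c at or under 0.188 FPKM. Gzma had 0.238, 0.184 and 0.571 FPKM in vehicle and 1.95, 1.05 and 1.05 FPKM in DS-5272 samples. Without the filter, the limma adjusted p was 0.027 for Gzma, 0.091 for Ncr1 and 0.44 for Klrb1c. That fit called 14.6% of genes higher. With a pseudocount of 0.1 as well, the limma adjusted p of Ncr1 was 0.033, against 15.7% of genes called higher. The T cell markers summed to 0.575 to 0.635 and 1.25 to 3.84 FPKM, with Cd3e at or under 0.313 FPKM, and the B cell markers to 4.32 to 5.02 and 3.39 to 4.34 FPKM. The highest T cell sum, in DS-5272 replicate 1, was mostly Cd4, at 3.28 FPKM.

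Of 8 markers of bone marrow macrophages, 4 were called higher (6 with the block), against 24.2% of all tested genes (30.3% with the block). Their sum was 60.5, 85.2 and 115 FPKM in vehicle and 425, 187 and 241 FPKM in DS-5272 samples. C1qb was at 1.97, 1.53 and 2.95 FPKM in vehicle and at 58.2, 14.1 and 15.6 FPKM in DS-5272 samples. DS-5272 replicate 1 was thus highest for this sum as for the members, but not for every marker in it. Adgre1 was called higher too (log2 fold change 2.05, limma adjusted p = 0.0025). It stood at 59.8, 79.1 and 116 FPKM in DS-5272 samples, lowest in replicate 1, where the other markers of the list were highest. In vehicle, replicate 1 had the lowest sum through Vcam1 and Adgre1, while the other 6 of the 8 markers were lowest in vehicle replicate 2. Vcam1 was the largest part of the sum in DS-5272 replicate 1, at 143 FPKM. In mass cytometry, the paper reports that DS-5272 raised VCAM-1 in c-Kit+ leukemia cells, so this marker is not particular to macrophages here. The erythroid markers ran from 1.65 to 3.49 FPKM in vehicle and stood at 140, 25.5 and 11.9 FPKM in DS-5272 samples, the stromal and endothelial markers at 29.0 to 60 and 73.4 to 112 FPKM with Cdh5 at or under 0.0758 FPKM, and the dendritic cell markers at 91.8 to 135 and 124 to 217 FPKM. Most of the stromal and endothelial sum was Pecam1, at 58.8, 28.7 and 26.4 FPKM in vehicle and 109, 68.3 and 74.5 FPKM in DS-5272 samples. Of the other markers in that list, only Col1a1 reached 1 FPKM in any sample. Of the 7 dendritic cell markers 5 were under 1 FPKM in every sample, and the sum was made by Bst2, itself an interferon-induced gene, which rose (log2 fold change 1.16, limma adjusted p = 0.0077), and by Flt3, which fell from 54.1, 34.0 and 29.1 to 2.75, 1.51 and 1.23 FPKM (−3.81, adjusted p = 0.00069). The part of these cells in the values of the GTPases was not tested.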

How the data were processed

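Trimming with cutadapt 1.8.1, alignment to GRCm38 transcripts with TopHat2 2.1.1 and quantification with Cufflinks 2.2.1 were done by the authors, who deposited FPKM values per gene. These are scaled to transcript length and mapped fragments and are not counts, so no count model was applied. The table holds 26632 entries, and entries that shared a symbol were summed. Vehicle and DS-5272 samples were compared in limma 3.58.1 under R 4.3.3 with a two-sided moderated test (lmFit, then eBayes with trend) on log2(FPKM + 1), a scale that understates changes of low genes. A gene was tested if its mean reached 1 FPKM (11130 genes), and Benjamini-Hochberg adjustment was made over all tested genes, with a threshold of 0.05. The fit was tested on simulated data with independent noise in each sample. These lacked the likeness of same-numbered samples seen here, so the test does not bear on it. Tables, sequence searches and plots were made with Python 3.11.15, using pandas 2.3.3, numpy 2.4.6 and matplotlib 3.10.9.

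The members and gene lists were chosen with earlier results of these data known, and list counts are descriptions. All 9 members, all other genes of the GTPase families, fixed genes of interferon signaling, up to 3 genes with the largest called change in each remaining pathway list and any called the other way, defining markers, and the 8 genes nearest to the mean profile of the members were named. Irf8, Nlrp3, Map1lc3a, C1qb, Mpo, Bst2, Flt3, Vcam1, Nkg7, Gzma, Cd79b, Pecam1, Col1a1, Cd4, Pggt1b, Rce1, Icmt and Fnta were added after their values were seen. A gene that the rule selects is not reported here. Depth is not given in the table. It was estimated from the step that 1 fragment adds to low values, at 35000000 to 43000000 fragments in vehicle and 23400000 to 32200000 in DS-5272 samples, which gives the scale only, and no counting intervals were derived.

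Replicate numbers come from the sample titles, with no stated batch or litter. Across genes, the deviations of same-numbered samples from their group means had correlations of 0.66, 0.21 and 0.43, and those of differently numbered samples −0.58 to 0.34. Each same-numbered pair was above 0.1, and same-numbered samples were therefore taken as pairs. However, vehicle replicate 2 correlated more with DS-5272 replicate 3 (0.34) than with DS-5272 replicate 2 (0.21). The pairing of replicates 2 and 3 is thus less certain than that of replicate 1 (0.66). It was also inferred from the same expression values that the block is fitted to. The blocked value stands beside a printed call of a gene, or a printed count of a list, that it changed. The alternatives were another pseudocount, other filters, scalings and variance models, the block, a fold threshold and leaving out samples.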

Additional observations from a re-analysis of the deposited data

How the results depend on the processing

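Every alternative for which it was computed gave a positive median log2 fold change in both families. Leaving out 1 sample gave medians of 0.14 to 0.61 for the GBPs and 0.93 to 1.32 for the IRGs, and a pseudocount of 0.1 moved the GBP median to 0.99, with or without the filter and with the replicate block. The members called higher (4) fell to 2 with no filter, upper quartile scaling or total scaling, where 1 IRG remained, and ranged from 2 to 4 (GBPs 1 to 1, IRGs 1 to 3) when 1 sample was left out. Combinations chosen after seeing the data raised the GBPs called to 2 (no filter with a pseudocount of 0.1, with the replicate block, or with both), and with block, pseudocount 0.1 and no filter 7 members and 5 IRGs were called. The replicate block alone added Ifi47 (adjusted p = 0.0029) and changed no other call of a member. Leaving out 1 sample gave −0.58 to 0.08 for Gbp3 (0.08 without vehicle replicate 1 and without DS-5272 replicate 3) and −0.08 to 0.55 for Gbp7 (−0.08 without DS-5272 replicate 1), and neither was called under any setting. Irgm2 lost its call with median ratio scaling too (adjusted p = 0.054).

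Over all genes, 2697 were called higher and 2451 lower. The split was 1706 and 3564 with total scaling, 2313 and 2923 with upper quartile scaling, 2418 and 3135 with quantile normalization, and 4543 lower with total scaling and the block. Requiring a log2 fold change of at least 1 left 978 higher and 621 lower. Leaving out 1 sample gave 1654 to 2920 higher and 1404 to 2446 lower, with both lowest counts without vehicle replicate 2, and 1489 lower without vehicle replicate 3. Quantile normalization was applied to the tested genes, so family medians that include Gbp6 and Iigp1 were not computed for it. The cause of these shifts was not tested. Low levels limit Gbp6 and Iigp1, which rest on an estimated 10 to 32 and 4.2 to 49 fragments in vehicle samples.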
